A study of Mus musculus with 2 samples.

Results

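Glutamate is the transmitter that photoreceptors pass to bipolar cells and that bipolar cells release in turn. Plasma membrane carriers of the SLC1 family clear it from the synaptic cleft by coupling its uptake to sodium, and several of them also conduct chloride. In the retina the classical cycle runs through Müller glia, which take up glutamate, turn it into glutamine and hand the glutamine back to neurons, where glutaminase makes glutamate again. The genes described here are 9 rows of an expression table of 32813 gene symbols. They were taken by symbol alone and comprise 5 glutamate transporters (Slc1a1, Slc1a2, Slc1a3, Slc1a6 and Slc1a7), the glutamine transporter Slc38a1, and the enzymes Glul, Gls2 and Glud1. All 9 symbols were found.

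The series has 1 group of 2 libraries, called replicate 1 and replicate 2, both of type 5 bipolar cells that were taken by fluorescence sorting of dissociated retina from Htr3a-GFP mice. These are cone bipolar cells whose axons end in the ON layer of the inner retina. In that mouse line a green fluorescent protein reports activity of the promoter of Htr3a, a serotonin receptor channel gene, so the sort depends on where the transgene is active and not on bipolar identity itself. No treatment, other genotype or other cell population belongs to the group, and the sources used here do not state the age of the animals or their number per library. Values are TPM (transcripts-per-million units), a share of all transcripts corrected for transcript length. Comparing levels of different genes rests on that correction. The lengths used are not stated, and total RNA went into an amplification kit whose effect on coverage is unknown here. TPM keeps no read depth, the depth of both libraries is unknown, and no counting interval can be given. The libraries are called biological replicates by the submitters, and their spread is all the error there is. No 2-sided exact permutation test over 2 libraries can go below p = 0.5. A difference between the libraries has 1 value on each side, so such differences are given as values with no test.

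RNA of the 3 markers of type 5 bipolar cells was present in both libraries. The fluorescent protein used for the sort was not among the genes read. Htr3a stood at 90.9 TPM in replicate 1 and 88.8 in replicate 2, the potassium channel gene Kcng4 at 229 and 326, and the cadherin gene Cdh9 at 133 and 117. All 5 ON bipolar markers examined, among them the glutamate receptor gene Grm6, were above 100 TPM in both libraries. Of the 19968 genes above 0 in either library, 6.57% were at or over that line in both. None of the 4 OFF bipolar markers reached 10 TPM in both, beside 41.3% of the same genes that did. Over so few markers, missing a line that most genes miss is a description only. Mitochondrial-genome RNA made up 17.3% (replicate 1) and 24.6% (replicate 2) of the TPM, and the median gene above 0 differed by -0.20 (replicate 2 minus replicate 1, log2(TPM + 1)).

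Because the 5 glutamate transporters are related genes, their values depend on whether reads of one can be told from those of another. The coding stretch below is shown because it is well conserved in the family: it encodes the signature of the seventh transmembrane segment, which helps to bind sodium and substrate. Each line gives 60 bases of the coding strand, 5′ to 3′, from the principal GENCODE M21 transcript of the gene, and capitals mark the 42 positions that hold the same base in all 5 genes.
Slc1a1: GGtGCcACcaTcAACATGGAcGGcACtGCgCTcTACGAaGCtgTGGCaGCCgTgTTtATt
Slc1a2: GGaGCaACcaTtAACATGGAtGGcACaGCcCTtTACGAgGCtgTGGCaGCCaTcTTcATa
Slc1a3: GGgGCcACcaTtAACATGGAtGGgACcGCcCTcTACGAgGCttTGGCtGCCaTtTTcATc
Slc1a6: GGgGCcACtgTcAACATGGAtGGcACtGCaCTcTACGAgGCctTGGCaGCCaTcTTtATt
Slc1a7: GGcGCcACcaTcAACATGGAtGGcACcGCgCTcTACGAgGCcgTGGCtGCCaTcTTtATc

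The Slc1a2 stretch starts at codon 392 and lies in exon 8, at chr2:102761100-102761159 of GRCm38, the assembly also called mm10. It shares 51 of its 60 bases with Slc1a3, 50 with Slc1a7 and 48 each with Slc1a1 and Slc1a6. The other stretches lie at chr19:28905418-28905477 (Slc1a1, exon 10), chr15:8642232-8642291 (Slc1a3, exon 8, minus strand), chr10:78801887-78801946 (Slc1a6, exon 8) and chr4:108009764-108009823 (Slc1a7, exon 8). Even between these relatives no long identical run exists. Over whole coding sequences the longest run of identical bases between any 2 of the 5 genes was 26 bases, between Slc1a3 and Slc1a6, and between Slc1a2 and the others it was 15 to 17 bases. The sources used here do not state the read length.

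Among the transporters, Slc1a2 was far above all others. Slc1a2 encodes GLT-1 (EAAT2), the main glutamate transporter of the brain, where astrocytes carry most of it, and in the retina it is known from cone photoreceptors and cone bipolar cells. It stood at 954 TPM in replicate 1 and 635 in replicate 2, a mean of 795 ± 225 TPM (SD, n = 2). Both libraries were high, replicate 1 the higher by 1.5-fold, and neither overlapped any other of the 9 genes. By mean TPM the gene ranked 108 of 32813 symbols and 2 of the 339 symbols of solute carriers (Slc, a number, a and a number). As a share of the summed TPM of the 5 transporters it took 97.2% in replicate 1 and 96.4% in replicate 2. That share depends on the transcript lengths used, which are not stated. The principal GENCODE M21 transcript of Slc1a2 has 11595 bases, and those of the other transporters have from 2029 (Slc1a6) to 4163 (Slc1a3). In bulk RNA a level cannot be split into the share of cells that express a gene and the RNA per cell, which cannot be told apart here.

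Slc1a3 encodes GLAST (EAAT1), the glutamate transporter by which Müller glia are known in the retina. It stood at 11.1 TPM in replicate 1 and 11.3 in replicate 2, the closest match between libraries of the 8 genes above 0. Slc1a2 exceeded it by 85.6-fold in replicate 1 and 56.4-fold in replicate 2.

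Slc1a7 encodes EAAT5, a retinal transporter with a large chloride conductance, known from photoreceptor and rod bipolar terminals. It stood at 6.09 TPM in replicate 1 and 9.22 in replicate 2, a mean of 7.66 ± 2.21 TPM (SD, n = 2). Slc1a2 exceeded it by 157-fold and 68.9-fold. The rod bipolar markers Prkca, Car8 and Vstm2b summed to 9.29 TPM in replicate 1 and 17.7 in replicate 2. Each lay below 10 TPM in both libraries. All 3 were higher in replicate 2, as were 8264 of the 19968 genes above 0 in either library. No marker of the 3 was at 0. Photoreceptor markers, described further below, summed to 1560 and 1411 TPM for rods and to 187 and 41.8 TPM for cones. The part of rod bipolar cells or photoreceptors in the Slc1a7 level was not tested.

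Slc1a1 encodes EAAC1 (EAAT3), a neuronal carrier that also takes up cysteine. It stood at 10.6 TPM in replicate 1 and 3.33 in replicate 2, a 3.17-fold difference and the widest of the 8 genes above 0. Its libraries lay on both sides of those of Slc1a7, so the order of these 2 genes was not settled by their spread.

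Slc1a6 encodes EAAT4, best known from cerebellar Purkinje cells, and was listed at 0 in both libraries. With no depth, the level that such a 0 would still allow is unknown.

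Slc38a1 encodes SNAT1, a sodium-coupled carrier that brings glutamine into neurons. It stood at 113 TPM in replicate 1 and 98.4 in replicate 2, a mean of 106 ± 10.1 TPM (SD, n = 2) and rank 1536 of all symbols. Both libraries lay close together, and Slc1a2 was 8.46-fold and 6.45-fold higher.

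Of the enzymes, Glud1 and Glul stood at similar levels and Gls2 lower. Glud1 encodes mitochondrial glutamate dehydrogenase, which links glutamate to the citric acid cycle. It stood at 94.4 TPM in replicate 1 and 116 in replicate 2, a mean of 105 ± 15.4 TPM (SD, n = 2). Glul encodes glutamine synthetase, the enzyme that turns glutamate and ammonia into glutamine and that marks Müller glia in the retina. It stood at 75.8 TPM in replicate 1 and 124 in replicate 2, with replicate 2 higher by 1.64-fold. The ranges of Glul, Glud1 and Slc38a1 overlapped, so these 3 genes had no order beyond their spread.

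Gls2 encodes the liver-type glutaminase. It stood at 18.1 TPM in replicate 1 and 6.8 in replicate 2, a 2.66-fold difference.

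**Figure D1:**
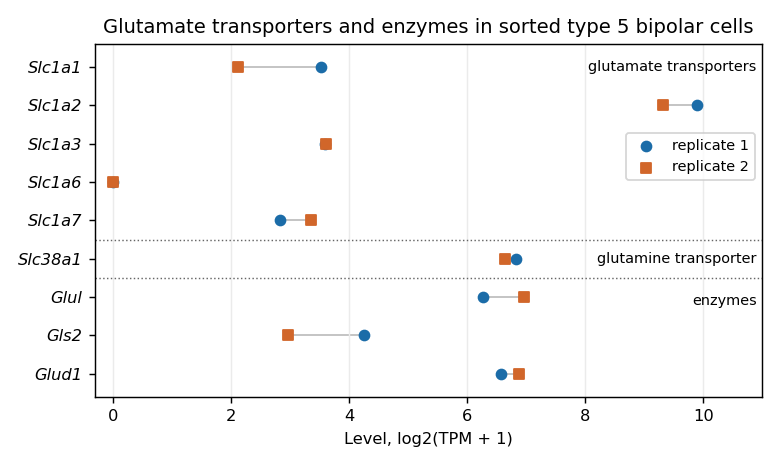
Level of each of the 9 genes on the log2(TPM + 1) axis, with a circle for replicate 1 and a square for replicate 2, joined by a line. Slc1a2 lies alone on the right at 954 and 635 TPM, Slc38a1, Glul and Glud1 lie between 75.8 and 124 TPM, and Slc1a6 lies at 0 in both libraries.

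In order of mean level the 9 genes ran Slc1a2, Slc38a1, Glud1, Glul, Gls2, Slc1a3, Slc1a7, Slc1a1 and Slc1a6. The libraries of neighbours did not overlap at 4 of the 8 steps: below Slc1a2, below Glul, between Slc1a3 and Slc1a7, and above Slc1a6. With 2 libraries per gene, a lack of overlap is a description and not a test. At the step from Slc1a3 to Slc1a7 the lowest library of the first was 11.1 TPM and the highest of the second 9.22. That gap was narrow beside the step from Slc1a2 to Slc38a1, where the same values were 635 and 113 TPM. The neighbouring pairs Slc38a1 and Glud1, Glud1 and Glul, Gls2 and Slc1a3, and Slc1a7 and Slc1a1 overlapped.

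Each level was tested against a line of 1 TPM with limma, fitted over the 19968 genes above 0 in either library, with one-sided p-values adjusted after Benjamini and Hochberg and a threshold of 0.05. Of the 9 genes 8 were called above the line, all but Slc1a6, beside 55.5% of all genes tested. That fit used the variance typical of a gene's abundance and gave no weight to how far the gene's own libraries lay apart. With all 32813 symbols in the fit 5 of the 9 were called, Slc1a1, Slc1a7 and Gls2 losing the call. That fit had a finite prior and also took the genes at 0 in both libraries into the trend and the adjustment. Without a variance trend the prior was finite too, and the same 8 genes were called. Without a model, 5 of the 9 stood at or over 10 TPM in both libraries (Slc1a2, Slc1a3, Slc38a1, Glul and Glud1), beside 41.3% of the genes above 0. At or over 100 TPM in both stood Slc1a2 alone, beside 6.57%. The median of the 9 genes was 3.61 on the log2(TPM + 1) scale with Slc1a6 at 0 included, against 3.22 for the 19968 genes above 0 in either library.

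Between the libraries the genes did not shift together. Of the 8 above 0, 4 were higher in replicate 1 (Slc1a1, Slc1a2, Slc38a1 and Gls2) and 4 in replicate 2 (Slc1a3, Slc1a7, Glul and Glud1), Slc1a3 by only 0.02 on the log2(TPM + 1) scale. Of all 19968 genes above 0 in either library, 11680 were higher in replicate 1 and 8264 in replicate 2. Within 2-fold lay 6 of these 8 genes, all but Slc1a1 and Gls2, beside 60.2% of all genes whose mean was 1 TPM or more. Among the 1584 genes at 100 to 1000 TPM, the range that holds Slc1a2, Slc38a1 and Glud1, 90.7% lay within 2-fold. Among the 8216 genes at 10 to 100 TPM, the range of Gls2, Slc1a3 and Glul, 70.4% did, and among the 6128 genes at 1 to 10 TPM, the range of Slc1a1 and Slc1a7, 38.3% did.

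**Figure D2:**
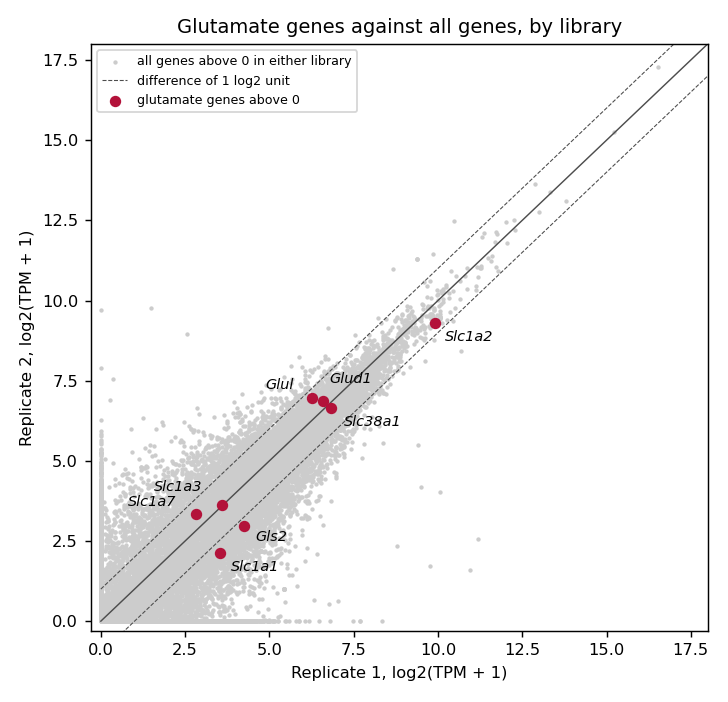
Each grey point is 1 of the 19968 genes above 0 in either library, with log2(TPM + 1) of replicate 1 on the horizontal axis and of replicate 2 on the vertical axis, and red points are the 8 glutamate genes above 0. The solid line marks equal levels and the dashed lines a difference of 1 log2 unit, outside which lie Slc1a1 and Gls2.

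Around these 9 genes, 47 others of glutamate and glutamine handling were read from a fixed list. By limma 30 of the 47 were above 1 TPM, and 18 stood at or over 10 TPM in both libraries, beside the 55.5% and 41.3% of all genes given above. The limma counts per family below are to be read beside the same 55.5%, over families of few genes.

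The SLC38 and vesicular families were each led by 1 gene. Of the 10 other SLC38 genes 6 were above 1 TPM by limma. Slc38a6, a family member whose substrates are less well defined, stood at 879 TPM in replicate 1 and 679 in replicate 2, which is 7.8-fold and 6.9-fold above Slc38a1. Slc38a3, which encodes the glutamine exporter SNAT3 known from glia, had 145 and 69.5 TPM, and Slc38a2, the SNAT2 gene, 30.4 and 30.3. Slc38a8, a glutamine transporter gene, had 0.17 and 0.08 TPM, and Slc38a4 and Slc38a5 were listed at 0 in both libraries.

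Of the 3 vesicular glutamate transporters, which load synaptic vesicles, Slc17a7 (VGLUT1) was the 1 above the line. It stood at 306 and 309 TPM, a mean of 307 ± 1.99 TPM (SD, n = 2). Slc17a6 (VGLUT2) had 0.1 TPM in replicate 1 and a listed 0 in replicate 2, and Slc17a8 (VGLUT3) had 0.21 and 0.72 TPM. Slc1a2 exceeded Slc17a7 by 3.12-fold in replicate 1 and 2.06-fold in replicate 2.

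Both genes of the cystine-glutamate exchanger, which trades intracellular glutamate for cystine, were above the line. Slc7a11 stood at 34.0 and 24.2 TPM and its partner Slc3a2 at 35.9 and 15.4. The neutral amino acid carriers of the SLC1 family were low: Slc1a5, a glutamine exchanger gene, had 8.54 and 9.78 TPM and was called, and Slc1a4 had 0.69 and 7.33 and was not. Of 4 mitochondrial glutamate carriers 2 were above the line, the glutamate carrier gene Slc25a22 at 107 and 147 TPM and the aspartate-glutamate exchanger gene Slc25a12 at 71.9 and 48.5. Of their relatives, Slc25a18 had 0.98 and 2.67 TPM, and Slc25a13 had 0.19 TPM in replicate 1 and a listed 0 in replicate 2.

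Transaminases move amino groups between glutamate and other amino acids, and 5 of 7 were called above 1 TPM by limma, although none of the 7 was below 1 TPM in either library. The aspartate transaminases led, with Got1, the cytosolic enzyme, at 103 and 143 TPM and Got2, the mitochondrial one, at 108 and 88.6. The alanine transaminases Gpt and Gpt2 had 4.85 and 2.73, and 4.09 and 8.7 TPM. Of 9 enzymes that use glutamine as a nitrogen donor 7 were above the line, among them Gmps of guanine nucleotide synthesis at 55.0 and 45.4 TPM and Gfpt1 of the hexosamine pathway at 39.7 and 31.8. The CTP synthase genes Ctps and Ctps2 differed between the libraries, with 9.2 and 22.3 TPM, and 125 and 21.1.

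Of 7 enzymes that use or make glutamate 4 were above the line. Oat, ornithine aminotransferase, stood at 27.9 and 28.2 TPM, Gclc, the first enzyme of glutathione synthesis, at 30.6 and 13.8, and Prodh, proline dehydrogenase, at 20.2 and 16.5. Gad1 and Gad2, which make GABA from glutamate and mark amacrine cells in the retina, had 0.06 and 0.11 TPM in replicate 1 and 10.4 and 9.94 in replicate 2. Neither was called. Of 3 genes whose proteins bind glutamate transporters 2 were above the line. Arhgef11, a guanine nucleotide exchange factor gene, stood at 47.3 and 76.9 TPM and Arl6ip5, whose product binds and restrains EAAC1, at 8.7 and 23.6. Ajuba had 0.33 and 0.22 TPM and was not called.

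**Figure D3:**
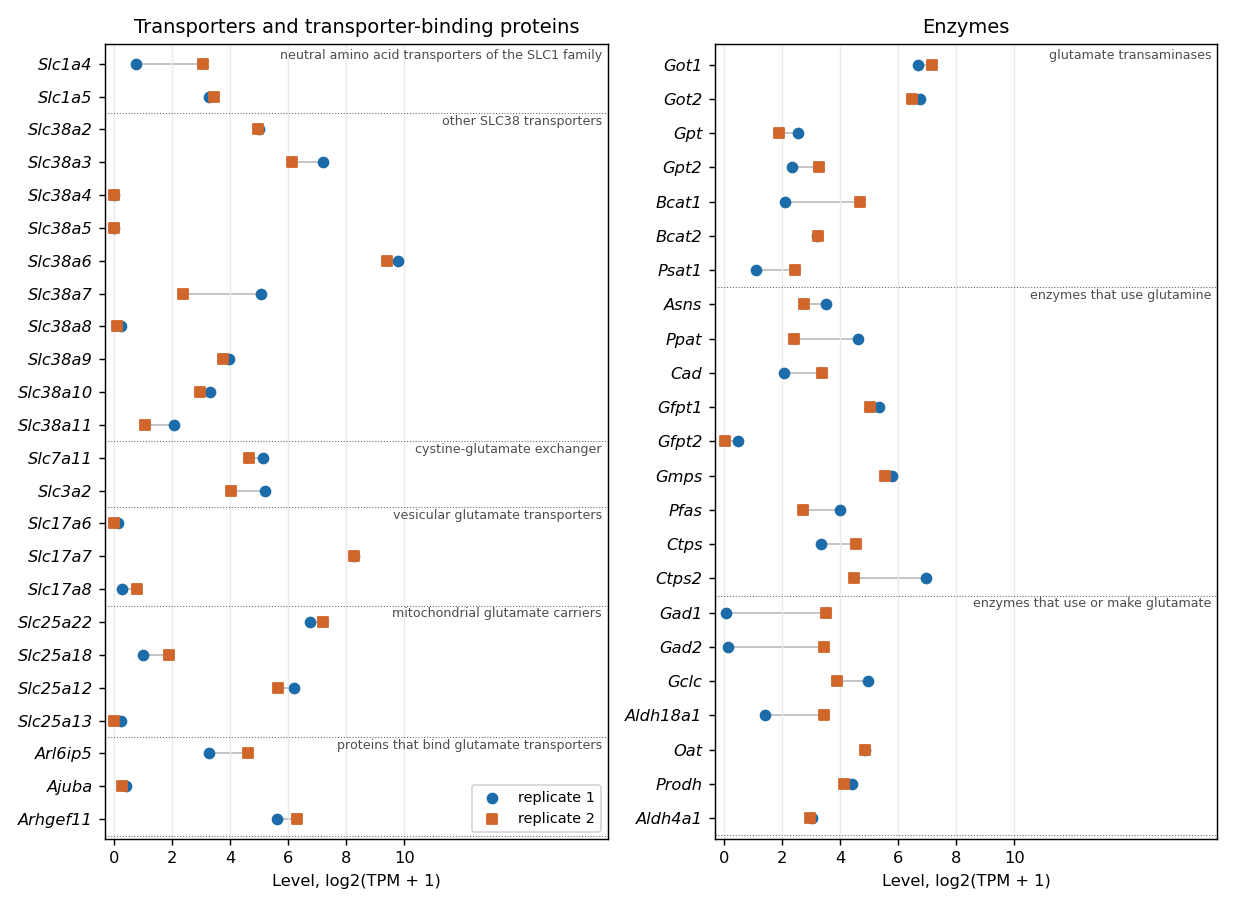
Levels of the 47 other genes of glutamate and glutamine handling on the log2(TPM + 1) axis, by functional group, with a circle for replicate 1 and a square for replicate 2. Slc38a6 reaches 679 TPM or more in both libraries and Slc17a7 306 or more, while Slc38a4 and Slc38a5 lie at 0.

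Several of the genes are also known from cells that a sort of dissociated retina can carry along. Slc1a3 and Glul are markers of Müller glia, whose other markers ranged widely. Of 12 such markers without Glul and Slc1a3, 4 were above 1 TPM by limma, beside 55.5% of all genes tested. They were Clu, Dkk3, Vim and Apoe, of which Vim and Apoe lost the call with all symbols in the fit and without a variance trend, and Vim also under robust moderation. Of the 12 markers 10 were higher in replicate 2, where 8264 of the 19968 genes above 0 were higher. Their summed level was 112 TPM in replicate 1 and 288 in replicate 2. Much of the difference lay in Vim, an intermediate filament gene, at 0.20 and 119 TPM. Apoe, the apolipoprotein E gene, had 1.29 and 27.0 TPM and Dkk3 11.2 and 31.7. Clu, the clusterin gene, stood at 85.7 and 79.5 TPM, a level like that of Glul and alike in both libraries. Rlbp1, the retinaldehyde-binding protein gene, had 2.31 and 3.74 TPM, Aqp4, the water channel gene, 0.68 and 6.77, and Crym a listed 0 in replicate 1 and 1.98 TPM in replicate 2. Glul was 32.8 times Rlbp1 in replicate 1 and 33.1 times in replicate 2, and Slc1a3 was 4.82 and 3.01 times Rlbp1. Against Clu, Glul stood at 0.88 and 1.56 times. Rlbp1 and Clu were picked from the 12 markers after the values were seen, and other markers would give other ratios. Vim and Apoe differed far more between the libraries than Glul did, so a ratio to either would not be alike in both. The part of Müller glia in the Glul and Slc1a3 levels was not tested.

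Cone and rod photoreceptor markers also differed. The 7 cone markers summed to 187 TPM in replicate 1 and 41.8 in replicate 2. All 7 were higher in replicate 1, as were 11680 of the 19968 genes above 0 in either library, Slc1a2 among them. Of those 19968 genes 8264 were higher in replicate 2. Arr3, the cone arrestin gene, had 4.47 and 1.01 TPM and Pde6c 0.46 TPM and a listed 0. The 8 rod markers summed to 1560 TPM in replicate 1 and 1411 in replicate 2, with 6 of 8 higher in replicate 2. Most of both sums came from Gngt1 at 965 and 639 TPM, Rom1 at 303 and 351 and Sag at 248 in each. The other rod markers were lower and 4 of those 5 were higher in replicate 2, Gnat1, the rod transducin gene, at 14.3 and 113 TPM. Of 7 amacrine markers 4 were higher in replicate 2, among them Tfap2b at 0.33 and 20.4 TPM and the Gad1 and Gad2 genes given above, while both libraries list Chat and Calb2 at 0. Slc6a9, a glycine transporter gene, ran the other way at 36.6 and 3.12 TPM and made up most of the amacrine sum in replicate 1, the sums being 38.0 and 47.3 TPM. The 4 astrocyte markers summed to 0.97 and 8.53 TPM, with Gfap listed at 0 in replicate 1. The part of these cells in any level above was not tested.

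**Figure D4:**
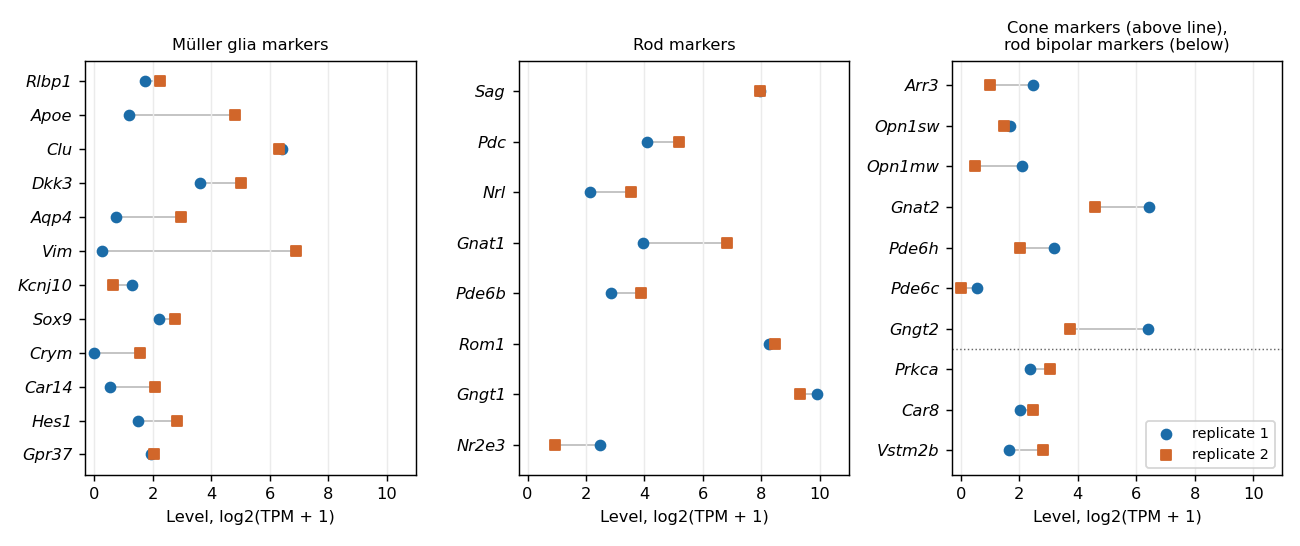
Levels of markers of Müller glia, rods, cones and rod bipolar cells on the log2(TPM + 1) axis, with a circle for replicate 1 and a square for replicate 2. Of the 12 Müller markers 10 are higher in replicate 2, and all 7 cone markers are higher in replicate 1.

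By position the 9 genes are dispersed. In GENCODE M21 on GRCm38 all are protein-coding genes. Slc1a2 lies on chromosome 2 from 102658659 to 102790784 (plus strand), Slc1a7 on chromosome 4 from 107968332 to 108013532 (plus) and Slc1a1 on chromosome 19 from 28835049 to 28913960 (plus). Chromosome 15 holds Slc1a3 from 8634124 to 8710764 and Slc38a1 from 96571418 to 96642913, both on the minus strand. Chromosome 10 holds Slc1a6 from 78780496 to 78814765 and Gls2 from 128194457 to 128210004, both on the plus strand. Glul lies on chromosome 1 from 153899944 to 153909723 and Glud1 on chromosome 14 from 34310727 to 34345265, both on the plus strand.

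Sequence shared with other genes was counted as the share of a principal transcript's stretches of 50 bases that also occur, on either strand, in a transcript of another gene. For Slc1a3, Slc1a6, Slc38a1 and Gls2 this share was 0%, and it was 0.41% for Slc1a7 and 1.49% for Slc1a2. Of the 172 shared Slc1a2 stretches 121 lay in an antisense gene, Gm13872, which shares 189 exon bases with it and stood at 35.9 TPM in replicate 1 and 46.1 in replicate 2. The share was 8.17% for Glud1 and 15.0% for Glul, so the values of these genes are less certain. The pseudogene Glud-ps held 143 of the 273 shared Glud1 stretches, and the pseudogene Glns-ps1 309 of the 412 of Glul. For Slc1a1 it was 30.1%, all with the opposite-strand gene 4430402I18Rik, which was listed at 0 in both libraries. The sources used here do not state whether counting used strand, so reads of these overlapping pairs may have been exchanged.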

How the data were processed

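RNA of 2 libraries of sorted type 5 bipolar cells was sequenced, which form 1 group. Per the labels' protocols, the sort was into RNAlater and total RNA went into an amplification kit. The authors deposited TPM for both libraries in 1 table. RSEM 1.2.28, TopHat2 2.0.10 and the mm10 build stand in the submitters' processing notes, with no role for each. The sources used here do not state the annotation, filters or use of strand. The header of the replicate 1 column misspells Htr3a, and its replicate number tied it to that library. The columns sum to 999999.75 and 999999.66, mitochondrial and ribosomal RNA included, so a larger share of these lowers all other TPM. TPM keeps no depth, and the depth is unknown.

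Values were used as deposited, and on log2(TPM + 1) where stated. The test against 1 TPM was an intercept-only limma 3.58.1 fit (R 4.3.3) with a variance trend over genes above 0 in either library. Benjamini-Hochberg adjustment ran over all of them, with a threshold of 0.05. A check on simulated data gave genes of like abundance the same spread. That check could not address spread particular to a gene. The prior of the fit was infinite, so single adjusted p-values are not printed. Python 3.11.15 with numpy 2.4.6, pandas 2.3.3 and matplotlib 3.10.9 did the rest. Stretches of 50 bases were compared with all GENCODE M21 transcripts. The 9 genes, the list of 47 others and the marker lists were chosen with earlier results of these data known, and the text names genes of these lists. Gm13872, 4430402I18Rik and the pseudogenes were named after their values or overlaps were seen, as were the ratios to Rlbp1 and Clu. Other filters, pseudocounts, variance models and a rescaling without the mitochondrial genome were tried. Some genes first put on these lists are not reported here.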

Additional observations from a re-analysis of the deposited data

How the results depend on the processing

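The limma count of 8 of the 9 genes above 1 TPM was also 8 under the other 5 alternatives (a mean of at least 1 TPM, a pseudocount of 0.1, no variance trend, robust moderation, and TPM rescaled without the mitochondrial genome) and was 5 with all symbols in the fit. For the 47 other genes the count of 30 ranged from 21, with all symbols in the fit, to 33, without a variance trend. The counts at or over 10 TPM, 5 of the 9 genes and 18 of the 47, were 5 and 23 without replicate 1, 7 and 22 without replicate 2, and 5 and 22 rescaled without the mitochondrial genome. The median of the 9 genes, 3.61, was 3.50 with a pseudocount of 0.1, 3.62 without replicate 1 and 4.25 without replicate 2. Rescaling without the mitochondrial genome raised the means of all 8 genes above 0, that of Slc1a2 to 998 TPM and that of Glul from 99.8 to 128. It moved the means of 3 of the 9 genes (Slc1a3, Slc38a1 and Glud1) by more than 1 SD. Those 3 are the genes above 0 whose libraries lay closest together in fold, so their SD was small for their level. No difference between the libraries changed sign under the alternatives run. A shift by the median of genes at 10 TPM or more, -0.16, took Slc38a1 from -0.19 to -0.03 and Slc1a3 from 0.02 to 0.18 (log2, replicate 2 minus replicate 1). Leaving out a library leaves no residual degrees of freedom, so no limma call could be made without one. The unknown depth leaves the levels of Slc1a6 and of other genes listed at 0 without a limit.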

Other observations

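The glutamate transporter gene Slc1a2 and the SLC38 gene Slc38a6 stood close to each other in the order of all 32813 symbols, at ranks 108 and 111 by mean TPM. Each was higher in replicate 1 than in replicate 2, at 954 and 635 TPM for Slc1a2 and 879 and 679 for Slc38a6. Of the 339 solute carrier symbols, Slc1a2 and Slc38a6 ranked 2 and 3 and the vesicular transporter gene Slc17a7 ranked 7. The share of 50-base stretches found in transcripts of other genes was 2.95% for Slc38a6 and 0% for Slc17a7.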
